A study of Mus musculus with 10 samples.

Results

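Wnt ligands, their cell-surface receptors and the R-spondins were examined in mouse osteoblasts, the bone-forming cells. The group holds 44 genes chosen by name: 19 Wnt ligands, 10 Frizzled receptors, the co-receptors Lrp4, Lrp5 and Lrp6, the alternative receptors Ror1, Ror2 and Ryk, the R-spondin receptors Lgr4, Lgr5 and Lgr6, 4 R-spondins, and Porcn and Wls, which are needed to make and export Wnt proteins. All 44 had a probe set on the array, 87 probe sets of the 45101 in all. The highest 3 of the 10 values had to lie above 7.15, the median of the whole table on the log2 scale. By that measure 47 probe sets of 31 members were kept, and 31 of 11357 genes tested were members.

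Total RNA was measured on 10 Affymetrix arrays. Wild-type osteoblasts (4 arrays) were compared with osteoblasts that express β-catenin constitutively (3 arrays, called β-catenin active here) and with osteoblasts lacking FoxO1 (3 arrays, called FoxO1 deleted). Both alterations are labelled osteoblast specific. The mice were aged 2 to 3 days, the background strain is given as C5BL6, and sex was left undetermined. The allele, the promoter that drives either alteration and the number of animals behind a sample are not given in the sources used here, and a p-value here reflects sample-to-sample spread alone, part of which may be technical. Of 10 osteoblast markers, 7 had a probe set annotated to 1 gene alone, and all 7 passed the filter. Their wild-type means included 15.11 for Col1a1, 14.74 for Ibsp and 11.45 for Sp7. Runx2, Spp1 and Bglap had no such probe set and were not tested. Transcripts of other tissues were present as well, with a wild-type mean of 14.64 for Acta1 of skeletal muscle. In such bulk samples fewer cells of a type and less RNA per cell cannot be told apart. Wild type 1 and 2 correlated at 0.990 over genes and wild type 3 and 4 at 0.989, against 0.971 to 0.973 between the pairs, and the labels do not say whether arrays of such a pair share an animal or culture.

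Wnt proteins receive a lipid from the enzyme Porcn, travel to the cell surface on Wls and bind a Frizzled receptor. With Lrp5 or Lrp6 beside Frizzled, the signal stops the breakdown of β-catenin, which then acts on target genes in the nucleus. With Ror1, Ror2 or Ryk the signal runs without β-catenin and acts on cell shape and movement. R-spondins bind Lgr receptors and keep Frizzled and Lrp on the membrane, and this pathway is a main regulator of bone mass. Constitutive β-catenin enters below all of these genes, so the comparison shows whether osteoblasts with an active downstream signal hold other levels of the upstream parts.

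No member passed the test in any comparison. With active β-catenin against wild type, 0 of 31 members had a Benjamini-Hochberg adjusted p under 0.05 in limma, where 0.784% of all genes did. The smallest adjusted p among members was 0.132, for Fzd1. At an unadjusted p under 0.05 there were 8 members, all higher with active β-catenin, beside 12.1% of all genes in either direction and 6.30% in that direction. The median difference was 0.14 on the log2 scale over the 31 members and 0.005 over all genes. Leaving out wild type 1 or 2 lowered the members' median to 0.09 or 0.08. Precision differed between members, and 25 of 31 had a 95% interval of the difference inside a 2-fold change in either direction. The 6 whose intervals reached further were Lgr5, Wnt2, Wnt4, Wnt5b, Wnt11 and Wnt16.

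**Figure D1:**
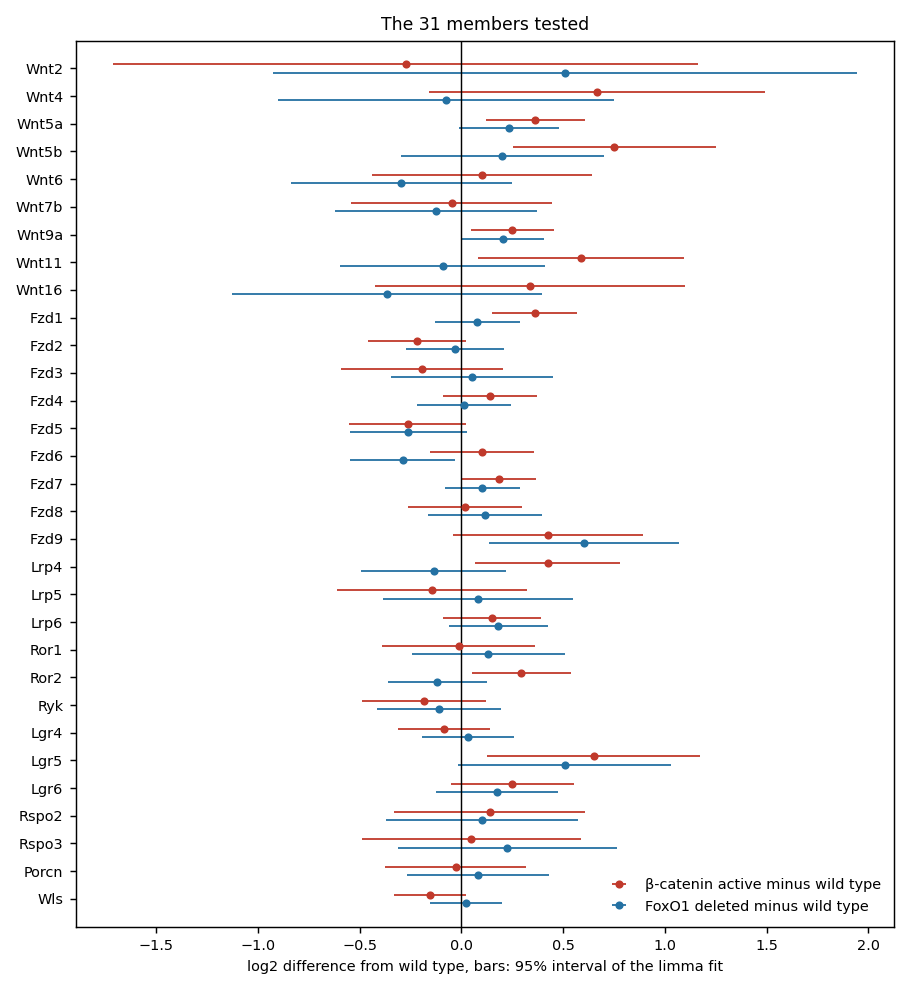
Log2 difference from wild type (horizontal axis) of the 31 members tested, red for β-catenin active and blue for FoxO1 deleted. Bars are 95% intervals of the limma fit over 10 arrays. Wnt2 had the widest bars, and the red points of Wnt5b (0.75) and Wnt4 (0.67) lie farthest to the right.

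Ligands come first. Of 19 Wnt genes, 9 passed the filter and were tested, namely Wnt2, Wnt4, Wnt5a, Wnt5b, Wnt6, Wnt7b, Wnt9a, Wnt11 and Wnt16. Of these 9, 4 are among the 8 members above, and 7 of 9 had a positive difference.

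Wnt5b, a ligand of the β-catenin-independent branch known from cartilage, stood at 8.30, 8.63, 8.23 and 8.57 in wild type, at 9.55, 8.53 and 9.47 with active β-catenin and at 8.74, 8.42 and 8.74 with FoxO1 deleted. β-catenin active 1 and 3 lay above every other array, and β-catenin active 2 lay within wild type. The difference from wild type was 0.75 ± 0.23 (SE), a 1.68-fold higher mean, with an adjusted p of 0.174. A further probe set of Wnt5b read 8.13, 8.06, 7.65 and 7.98 in wild type against 9.12, 8.87 and 8.44 with active β-catenin. On that probe set the genotypes did not overlap, and with every kept probe set fitted on its own the adjusted p was 0.0667. Averaged over both probe sets Wnt5b passed (adjusted p = 0.0351). It passed without β-catenin active 2 (adjusted p = 0.0187), but that array is the one within wild type, so its removal gives no further support. Over all alternatives the adjusted p of Wnt5b ran from 0.0187 to 0.709.

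Wnt5a, the main ligand of Ror2, stood at 9.80, 9.66, 10.05 and 10.05 in wild type, at 10.39, 10.22 and 10.15 with active β-catenin and at 10.15, 10.06 and 10.16 with FoxO1 deleted. Every array of either altered genotype lay above every wild-type array, but FoxO1 deleted 2 was only just above wild type 3 and 4. The differences were 0.36 ± 0.11 (adjusted p = 0.179) with active β-catenin and 0.23 ± 0.11 (adjusted p = 0.651) with FoxO1 deleted. These comparisons share their wild-type arrays, as do all pairs of differences from wild type below. The second kept probe set of Wnt5a differed by 0.23 and 0.30.

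Wnt9a, known from joint formation, showed the same order of groups. Its values were 9.74, 9.81, 9.87 and 9.75 in wild-type arrays, 10.21, 10.04 and 9.88 with active β-catenin, and 10.02, 9.93 and 10.04 with FoxO1 deleted. Neither altered genotype overlapped wild type, by a margin of 0.01 for β-catenin active 3. The differences were 0.25 ± 0.09 (adjusted p = 0.283) and 0.20 ± 0.09 (adjusted p = 0.637).

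Wnt11, a ligand mostly of the β-catenin-independent branch, read 8.08, 7.86, 8.31 and 8.79 in wild-type arrays, 8.66, 8.72 and 9.16 with active β-catenin, and 7.84, 8.19 and 8.47 with FoxO1 deleted. Wild type 4 lay inside the range of active β-catenin, while the altered genotypes did not overlap each other. Active β-catenin differed from wild type by 0.59 ± 0.23 (adjusted p = 0.324) and from FoxO1 deleted by 0.68 ± 0.25 (adjusted p = 0.464).

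Wnt4, which can signal by either branch, split within wild type, at 6.83 and 6.75 in wild type 1 and 2 and 8.18 and 8.08 in wild type 3 and 4. It read 7.70, 8.51 and 8.17 with active β-catenin and 7.75, 7.08 and 7.32 with FoxO1 deleted, and like Wnt2 and Wnt10b below it is described because of these values. The difference between active β-catenin and wild type, 0.67 ± 0.38 (adjusted p = 0.532), was smaller than the 1.34 between the wild-type pairs. A second kept probe set read 7.43, 7.38 and 7.22 with active β-catenin and 7.08 or less in each of the 7 other arrays. It passed the filter only through the arrays with active β-catenin, so its lack of overlap is no support. The ligands Wnt6, Wnt7b and Wnt16 had differences of 0.10, -0.05 and 0.34 with active β-catenin and adjusted p of 0.777 or more.

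The 10 ligands that were not tested were Wnt1, Wnt2b, Wnt3, Wnt3a, Wnt7a, Wnt8a, Wnt8b, Wnt9b, Wnt10a and Wnt10b. With Fzd10, Rspo1 and Rspo4 they make up 13 members whose 19 probe sets had at most 2 values above the table's median and none above 7.42. Signal that low has no reliable size on this scale, and it does not show that a gene was silent. Wnt10b, a ligand that favours bone formation in mice, was at 5.91, 6.22, 6.36 and 6.22 in wild type and at 3.93, 3.60 and 3.79 with active β-catenin. FoxO1 deleted 1 read 4.22, near the arrays with active β-catenin, and FoxO1 deleted 2 and 3 read 6.66 and 6.24, within or above wild type. All 10 values lie under the table's median, so no fold is given. Other untested ligands separated genotypes at such low signal too. Wnt3 and a probe set of Wnt7a did not overlap between FoxO1 deleted and wild type. Several Wnt genes lie next to each other on their chromosome, in the pairs Wnt6 and Wnt10a, Wnt3a and Wnt9a, Wnt9b and Wnt3, and Wnt10b and Wnt1. In the first pair Wnt6 alone passed the filter, in the second Wnt9a alone, and in the last pairs neither gene did.

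**Figure D2:**
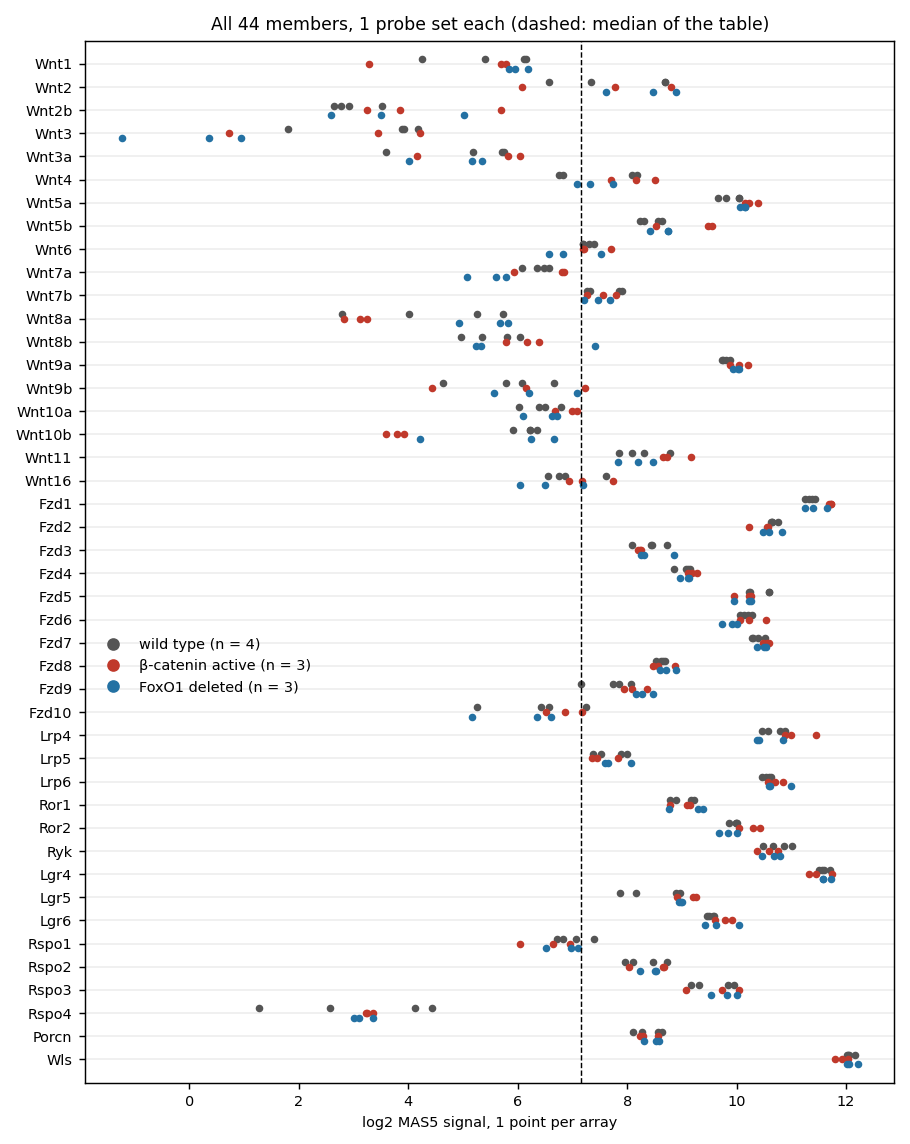
Log2 MAS5 signal (horizontal axis) of all 44 members, 1 point per array, with wild type in grey, β-catenin active in red and FoxO1 deleted in blue. Each gene is drawn with 1 probe set, and the dashed line is the table's median of 7.15. Most untested ligands lie wholly left of it, while Frizzled, Lrp and Lgr genes lie at or right of it apart from Fzd10, and signal cannot be compared from gene to gene.

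Frizzled receptors were nearly all above the filter, 9 of 10, with Fzd10 the exception. Fzd1 read 11.33, 11.25, 11.38 and 11.44 in wild-type arrays, 11.68, 11.73 and 11.72 with active β-catenin, and 11.24, 11.39 and 11.65 with FoxO1 deleted. All 3 arrays with active β-catenin were higher than all 7 others, and FoxO1 deleted 3 came within 0.03 of them. Its means were 11.35 ± 0.08 (SD, n = 4) and 11.71 ± 0.03 (SD, n = 3), a difference of 0.36 ± 0.10 (SE) or 1.28-fold, with an adjusted p of 0.132. The call changed with the arrays in the fit, since Fzd1 passed without FoxO1 deleted 3 (adjusted p = 0.0474) and with wild type and active β-catenin fitted alone (adjusted p = 0.0432). Over all alternatives its adjusted p ran from 0.0432 to 0.671. Counted over members, 6 of 31 had no overlap between active β-catenin and wild type, beside 14.0% of all genes. Of these 5 were higher (7.27% of all genes) and 1 was lower (6.76%).

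The member that was lower was Fzd2. It read 10.64, 10.63, 10.76 and 10.65 in wild type against 10.22, 10.55 and 10.58 with active β-catenin, a difference of -0.22 ± 0.11 (adjusted p = 0.463). With FoxO1 deleted it read 10.59, 10.49 and 10.83, on both sides of wild type. The gap rests mostly on β-catenin active 1, and 2 further probe sets of Fzd2 did overlap. Ror2 and Lgr6 complete the 6 members without overlap and are described with their relatives. The remaining receptors Fzd3, Fzd4, Fzd5, Fzd7 and Fzd8 differed from wild type by -0.27 to 0.18 with active β-catenin and by -0.26 to 0.12 with FoxO1 deleted, with adjusted p of 0.420 or more.

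With FoxO1 deleted, 0 of 31 members passed limma's adjusted test, where 0.0264% of all genes did. At an unadjusted p under 0.05 there were 3 members, beside 7.83% of all genes. Wnt9a and Fzd9 were higher (3.88% of all genes in that direction) and Fzd6 was lower (3.94%). Fzd9, a receptor known to be needed for normal bone formation in mice, read 7.75, 8.07, 7.15 and 7.86 in wild-type arrays, 8.48, 8.28 and 8.17 with FoxO1 deleted and 7.95, 8.08 and 8.37 with active β-catenin. The arrays with FoxO1 deleted lay above all wild-type arrays, with a difference of 0.60 ± 0.21 (1.52-fold, adjusted p = 0.560). Wild type 3 alone was as low as 7.15. Fzd6, which also takes part in planar cell polarity, read 10.13, 10.07, 10.28 and 10.21 in wild-type arrays, 9.91, 10.01 and 9.73 with FoxO1 deleted and 10.53, 10.22 and 10.07 with active β-catenin. FoxO1 deleted arrays lay below all others, with differences of -0.29 ± 0.12 from wild type (adjusted p = 0.627) and of 0.39 ± 0.13 between active β-catenin and FoxO1 deleted (adjusted p = 0.359). A second probe set of Fzd6 differed from wild type by 0.05. In all, 4 members had no overlap between FoxO1 deleted and wild type, beside 9.03% of all genes. They were Wnt5a, Wnt9a and Fzd9, which were higher (4.59% of all genes), and Fzd6, which was lower (4.44%). The count at an unadjusted p under 0.05 moved with single arrays. It was 0 without FoxO1 deleted 1 (9.18% of all genes), 1 without FoxO1 deleted 3 (7.04%), 5 without FoxO1 deleted 2 (11%) and 5 without wild type 3 (6.85%).

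Among the co-receptors, Lrp4, which holds the bone antagonist sclerostin at the membrane, read 10.88, 10.80, 10.47 and 10.58 in wild type. It read 11.45, 10.88 and 10.99 with active β-catenin and 10.41, 10.38 and 10.85 with FoxO1 deleted. β-catenin active 1 stood highest, and β-catenin active 2 equalled wild type 1. The difference of active β-catenin from wild type was 0.42 ± 0.16 (1.34-fold, adjusted p = 0.306), and from FoxO1 deleted, without overlap, it was 0.56 ± 0.17 (adjusted p = 0.330). Lrp5 and Lrp6, the co-receptors of the β-catenin branch, differed from wild type by -0.15 ± 0.21 and 0.15 ± 0.11 with active β-catenin. With FoxO1 deleted they differed by 0.08 ± 0.21 and 0.18 ± 0.11.

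Ror2, the tyrosine kinase receptor for Wnt5a, read 9.99, 9.99, 9.86 and 10.01 in wild-type arrays, 10.29, 10.05 and 10.43 with active β-catenin and 10.01, 9.67 and 9.85 with FoxO1 deleted. Arrays with active β-catenin were higher than all others. Its difference was 0.29 ± 0.11 from wild type (adjusted p = 0.295) and 0.41 ± 0.12 from FoxO1 deleted (adjusted p = 0.269). The second kept probe set of Ror2 did not share the direction, with a difference of -0.09 from wild type. The related receptors Ror1 and Ryk differed by -0.01 ± 0.17 and -0.18 ± 0.14 with active β-catenin.

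Lgr5, an R-spondin receptor known as a stem cell marker and Wnt target of the gut, read 8.17, 7.87, 8.89 and 8.96 in wild-type arrays, 9.20, 9.26 and 8.91 with active β-catenin and 8.95, 9.00 and 8.99 with FoxO1 deleted. Wild type 1 and 2 lay below all others, whereas wild type 3 and 4 lay close to the altered genotypes. The difference of active β-catenin from wild type was 0.65 ± 0.24 (1.57-fold, adjusted p = 0.279). The mean was 9.12 with active β-catenin, 8.02 in wild type 1 and 2 and 8.93 in wild type 3 and 4. Xist, the transcript of the inactive X chromosome, was at 8.96 or less in wild type 1 and 2, in all arrays with active β-catenin and in FoxO1 deleted 1, and at 14.05 or more in the other 4 arrays. High-Xist arrays were thus absent from the active β-catenin group alone, which holds for every member compared with it. In arrays with low Xist signal alone, which leaves wild type 1 and 2 as controls, Lgr5 passed (adjusted p = 0.0271). Its adjusted p ran from 0.0271 to 0.884 over all alternatives.

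Lgr6 read 9.56, 9.59, 9.45 and 9.49 in wild type against 9.79, 9.61 and 9.92 with active β-catenin, a difference of 0.25 ± 0.14 (adjusted p = 0.515) with β-catenin active 2 just above wild type 2. With FoxO1 deleted it read 9.62, 9.43 and 10.04, from below to above wild type. Lgr4, the widely expressed receptor of the family, differed by -0.09 ± 0.10 with active β-catenin and by 0.03 ± 0.10 in the FoxO1 deleted arrays. Its 95% intervals ran from -0.31 to 0.14 and from -0.19 to 0.26.

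Wls, the Wnt carrier, read 12.05, 12.02, 12.04 and 12.16 in wild-type arrays, 11.79, 12.03 and 11.92 with active β-catenin and 12.01, 12.21 and 12.05 with FoxO1 deleted. The difference of -0.15 ± 0.08 with active β-catenin had an adjusted p of 0.497. A further probe set of Wls read 10.94, 10.92, 11.26 and 11.12 in wild type against 10.51, 10.79 and 10.84 with active β-catenin. These did not overlap, and fitted on its own that probe set differed by -0.35 (adjusted p = 0.204). The remaining kept probe set of Wls differed by 0.08, in the other direction. In all, 13 members had several kept probe sets, and for 10 of them the probe sets had the same sign in this comparison.

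**Figure D3:**
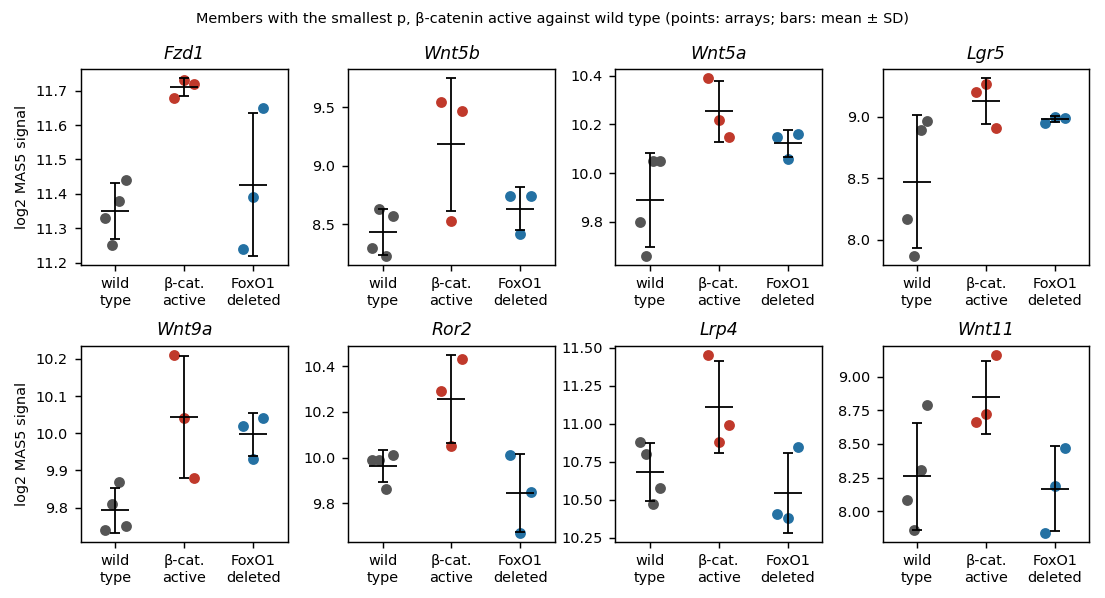
Log2 MAS5 signal (vertical axis) in each array for the 8 members with an unadjusted p under 0.05 in active β-catenin against wild type. Points are arrays, and bars are mean ± SD over 4 wild-type arrays or 3 arrays of an altered genotype. Fzd1 with active β-catenin is tight at 11.68 to 11.73, while Lgr5 in wild type falls into a low and a high pair.

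Active β-catenin against FoxO1 deleted also gave 0 of 31 members at an adjusted p under 0.05 in limma, where 0.669% of all genes passed. At an unadjusted p under 0.05 there were 6 members, all higher with active β-catenin, beside 8.03% of all genes in either direction and 4.75% in that direction. They were Wnt5b, Wnt11, Fzd1, Fzd6, Lrp4 and Ror2. No overlap was seen for 5 of 31, namely these members without Wnt5b, beside 9.54% of all genes in either direction and 5.39% in that direction. Fzd1 differed by 0.28 ± 0.10 (adjusted p = 0.461) and Wnt5b by 0.55 ± 0.24 (adjusted p = 0.603).

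Several members also split the arrays across the genotypes. Skeletal muscle markers, 6 of 6 above the filter, were scored as their mean log2 deviation from their average over all arrays. The score was -0.65 and -0.67 in wild type 1 and 2, -0.83 in β-catenin active 1 and -0.56 in FoxO1 deleted 2. It was 0.54 and 0.48 in wild type 3 and 4, 0.74 and 0.31 in β-catenin active 2 and 3, and 0.59 and 0.06 in FoxO1 deleted 1 and 3, the last close to 0. For 7 of 31 members (22.6%) the 4 arrays with a negative score did not overlap the 6 others, beside 5.55% of all genes. These members were chosen after their values were seen. The split is not particular to muscle markers. The osteoclast marker score was 0.10 to 0.58 in the arrays of negative muscle score and -0.715 to 0.065 in the others. The array median was 7.2 to 7.22 in the former and 7.02 to 7.15 in the latter. Which of these the members follow was not tested.

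Rspo3, an R-spondin that raises Wnt signalling in bone, was at 9.17 and 9.31 in wild type 1 and 2, 9.07 in β-catenin active 1 and 9.54 in FoxO1 deleted 2. Elsewhere Rspo3 read 9.95 and 9.84 in wild type 3 and 4, 10.04 and 9.74 with active β-catenin and 9.83 and 10.01 with FoxO1 deleted. Rspo2, its relative, lay between 7.96 and 8.23 in the arrays of negative score and between 8.48 and 8.72 in the others. Each genotype thus held a low and a high value of both R-spondins. Against wild type, Rspo3 differed by 0.05 ± 0.25 with active β-catenin and by 0.23 ± 0.25 with FoxO1 deleted (adjusted p = 0.965 and 0.844).

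Wnt2, a ligand of the β-catenin branch, had the widest interval of the 31 members tested. It lay between 6.08 and 7.62 in the 4 arrays of negative score and between 7.77 and 8.90 in the 6 others. Its wild-type pairs were 1.73 apart, and its interval for active β-catenin against wild type ran from -1.71 to 1.16. Ror1, a receptor expressed in developing muscle and skeleton, lay between 8.76 and 8.90 in the former arrays and between 9.09 and 9.39 in the latter.

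The opposite order was found for Lrp5, Porcn and Fzd5. Lrp5 lay between 7.84 and 8.07 in the arrays of negative score and between 7.35 and 7.65 in the others. Porcn lay between 8.56 and 8.64 in the former and between 8.10 and 8.52 in the latter. For Fzd5 the edges were 10.27 and 10.25, almost touching. The osteoblast marker score ran from -0.01 to 0.23 in the arrays of negative muscle score and from -0.17 to 0.13 in the others, so it overlapped, with FoxO1 deleted 3 highest among the latter. With the muscle score as a term in the fit, 0 of 31 members passed in each comparison, and the difference of Lrp4 from wild type had an adjusted p of 0.0949 and that of Fzd1 0.0860. Within the arrays of negative score, active β-catenin is β-catenin active 1 alone, set against the similar wild type 1 and 2. It differed there by 1.18 for Lgr5, 0.66 for Wnt5a and 1.09 for Wnt5b. Within the others active β-catenin differed from wild type by 0.16, 0.14 and 0.60. For Fzd1 these values were 0.39 and 0.32.

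**Figure D4:**
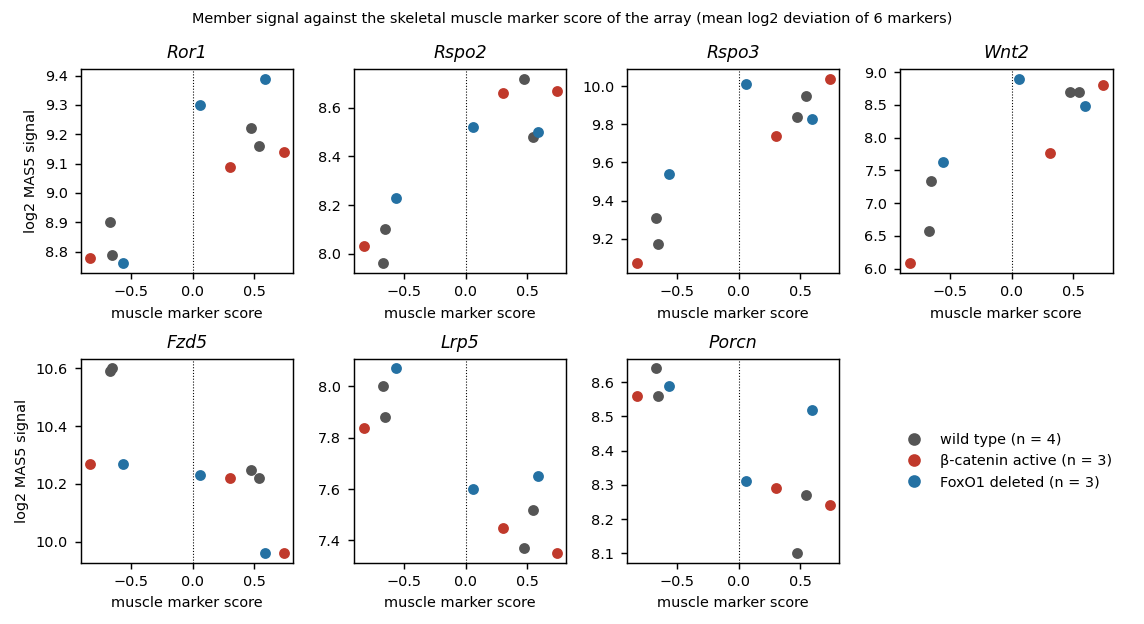
Log2 MAS5 signal (vertical axes) against the skeletal muscle marker score of the array (horizontal axes, mean log2 deviation of 6 markers) for the 7 members that separated the arrays by the sign of the score. Points are arrays, with wild type in grey, β-catenin active in red and FoxO1 deleted in blue. Ror1, Rspo2, Rspo3 and Wnt2 are high at right, Fzd5, Lrp5 and Porcn are high at left, and every colour occurs on both sides.

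Endothelial, chondrocyte and erythroid marker scores did not overlap between active β-catenin and wild type. With FoxO1 deleted the chondrocyte score also lay apart from wild type, while the erythroid score overlapped it. No marker of these lists passed limma's adjusted test against wild type. Their smallest adjusted p with active β-catenin was 0.0824, 0.0838 and 0.153, in that order. Of 6 fibroblast and smooth muscle markers, 6 passed the filter. With active β-catenin 2 rose, Thy1 by 0.91 ± 0.17 (adjusted p = 0.0368) and S100a4 by 0.42 ± 0.08 (adjusted p = 0.0384). Their score was -0.29 to 0.01 in wild type, 0.50, 0.20 and -0.00 in β-catenin active 1, 2 and 3, and -0.10 to 0.01 in the FoxO1 deleted arrays. The endothelial score, over 6 of 6 markers, was -0.18 to -0.07 in wild-type arrays, 0.18 to 0.24 with active β-catenin and -0.11 to 0.02 with FoxO1 deleted. The chondrocyte score, over 6 of 6, was -0.82 to -0.26 in wild type, -0.02 to 0.35 with active β-catenin and -0.12 to 1.26 with FoxO1 deleted. The erythroid score, over 3 of 5 markers, was 0.56 to 1.90 in wild type, -2.40 to -0.73 with active β-catenin and -1.43 to 1.43 with FoxO1 deleted. Frizzled, Ror and Wnt5 genes are expressed by fibroblasts, endothelial cells and chondrocytes too, and the part of these cells in the values of Fzd1, Ror2, Wnt5a and Wnt5b was not tested.

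Promoters of the members were searched for the letters CTTTGA, the core bound by TCF and LEF factors, the nuclear partners of β-catenin. Of the 44 members, 29 matched the RefSeq promoter table of build GRCm38.p6. The 250 bases before each gene start were searched on both strands. The core was present for 4 of these 29 members. It was in 12.5% of their 32 windows and in 13.8% of all 32851 windows of that length. The 4 windows that hold it are shown, 5′ to 3′ on the strand of the gene, with the core in capitals. In Wnt11, Fzd1 and Ror1 it reads TCAAAG, since it lies on the other strand.
Wnt5b, chr6:119449387-119449636, minus strand: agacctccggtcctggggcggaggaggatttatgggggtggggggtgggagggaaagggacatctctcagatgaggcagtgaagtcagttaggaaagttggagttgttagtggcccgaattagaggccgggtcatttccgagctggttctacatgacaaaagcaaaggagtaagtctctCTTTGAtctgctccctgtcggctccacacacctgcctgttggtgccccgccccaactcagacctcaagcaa
Wnt11, chr7:98834862-98835111, plus strand: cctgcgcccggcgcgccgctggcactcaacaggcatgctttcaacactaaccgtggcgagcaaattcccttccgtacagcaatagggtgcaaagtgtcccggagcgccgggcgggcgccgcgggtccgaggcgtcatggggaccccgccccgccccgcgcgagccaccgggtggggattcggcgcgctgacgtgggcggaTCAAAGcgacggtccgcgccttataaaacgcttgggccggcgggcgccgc
Fzd1, chr5:4758217-4758466, minus strand: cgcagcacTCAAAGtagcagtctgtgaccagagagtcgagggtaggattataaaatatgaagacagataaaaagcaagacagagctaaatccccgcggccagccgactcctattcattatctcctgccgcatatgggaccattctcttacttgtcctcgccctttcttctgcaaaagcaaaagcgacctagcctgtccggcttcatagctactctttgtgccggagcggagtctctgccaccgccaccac
Ror1, chr4:100095541-100095790, plus strand: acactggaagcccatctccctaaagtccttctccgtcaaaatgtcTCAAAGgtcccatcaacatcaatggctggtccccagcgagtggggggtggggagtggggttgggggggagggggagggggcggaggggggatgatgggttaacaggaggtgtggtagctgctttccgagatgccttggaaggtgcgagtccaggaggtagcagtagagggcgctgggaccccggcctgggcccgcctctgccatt

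The first base of the match lies 71 bases before the start in Wnt5b, 50 in Wnt11, 242 in Fzd1 and 205 in Ror1. The match lies before 1 of 3 listed starts of Wnt5b and 1 of 2 of Wnt11. Of the 8 members with an unadjusted p under 0.05 against wild type, 5 were in the table. Wnt5b, Wnt11 and Fzd1 held the core, Wnt9a and Ror2 did not, and Wnt5a, Lrp4 and Lgr5 were not searched. Ror1, with a difference of -0.01 ± 0.17, is not among the 8. Among genes that rose with active β-catenin, 13.6% of the 44 found in the table held the core, beside 12.6% of all tested genes found there. A match of 6 letters describes the window and shows no binding.

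The rest of the pathway was read from the same fit. Of 21 intracellular genes of the β-catenin branch tested, 1 rose with active β-catenin, Lef1, a nuclear partner of β-catenin, by 1.27 ± 0.24 (2.41-fold, adjusted p = 0.0359). Next by p was Tcf7l2, of the same factor family, at 0.29 ± 0.08 (adjusted p = 0.159). Of 11 secreted antagonists, 1 rose, Notum, the enzyme that removes the lipid from Wnt proteins, by 1.60 ± 0.17 (3.03-fold, adjusted p = 0.00129). Frzb, a secreted Frizzled-like protein, followed at -0.77 ± 0.16 (adjusted p = 0.0600). At an unadjusted p under 0.05 in limma, 5 antagonists were higher and 2 lower, beside 12.1% of all genes in either direction. Sost, the gene of sclerostin, was among the higher at 0.955 ± 0.20 (adjusted p = 0.0637). Of 16 Wnt target genes, which include Lef1 and Notum, 4 rose and 0 fell at an adjusted p under 0.05 in limma. Over all 11357 genes, 68 rose and 21 fell. The others were Tnfrsf11b, the decoy receptor osteoprotegerin, by 1.72 ± 0.30 (adjusted p = 0.0234), and Bambi, a decoy receptor of the BMP and TGF-β pathway, by 0.74 ± 0.10 (adjusted p = 0.00576). Whether passing or not, 13 of the 16 targets were higher and 3 lower. Of those lower, Dkk1, also a listed antagonist, differed by -0.69 ± 0.16 (adjusted p = 0.0898) and Twist1 by -0.31 ± 0.11 (adjusted p = 0.239). These lists were chosen with results of these data known.

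Some genes act directly on the receptors. Of 6 genes of receptor turnover and membrane inhibition, 0 passed against wild type, with a median difference of 0.37, led by Nkd1 at 0.57 ± 0.13 (adjusted p = 0.0875) and Apcdd1 at 0.54 ± 0.14 (adjusted p = 0.127). Against FoxO1 deleted, Nkd1, an inhibitor of Dishevelled, was higher by 0.87 ± 0.14 (adjusted p = 0.0190), and Lef1, Notum, Bambi and the antagonist Sostdc1 were higher as well, by 1.48, 1.62, 0.71 and 1.04. Co-factors of reception, such as glypicans, had 0 of 8 pass against wild type and differences between -0.10 and 0.12, with Gpc4 at 0.09 and Sdc1 at 0.12 smallest in p. Of 13 genes of planar polarity and noncanonical signalling 0 passed, led by Daam2 at 0.51 ± 0.12 (adjusted p = 0.0875) and Prickle2 at 0.48 ± 0.14 (adjusted p = 0.157). With FoxO1 deleted 0 genes of any of these lists passed against wild type. Axin2, a scaffold of β-catenin breakdown and a common Wnt readout, had the smallest p there among intracellular genes, at -0.46 ± 0.14 (adjusted p = 0.488). It differed by 0.26 ± 0.14 with active β-catenin (adjusted p = 0.515).

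**Figure D5:**
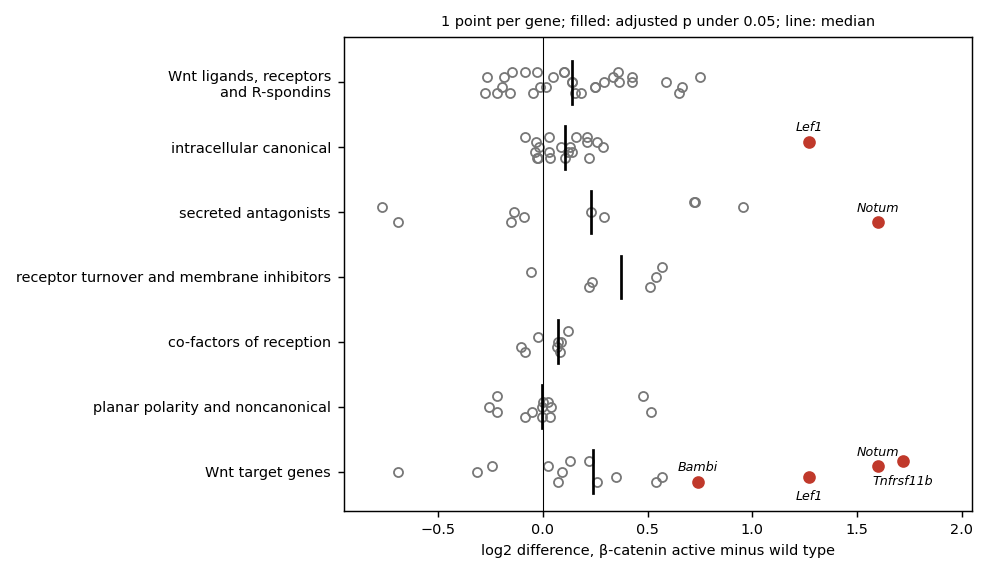
Log2 difference of active β-catenin from wild type (horizontal axis) for the members and 6 other lists of the pathway, 1 point per gene, filled at an adjusted p under 0.05, with a line at the median. Filled points are absent from the members and occur for Lef1, Notum, Bambi and Tnfrsf11b, and Lef1 and Notum appear in several lists.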

How the data were processed

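The deposited table holds log2 signal from MAS5, a tool the submitters' processing notes name without a version. Its log2 base, and a 2% trimmed mean near 500 on the linear scale in every array, follow from the values. Per the labels' protocols, 500 ng of total RNA was labelled. Low MAS5 values scatter widely, and with 10 arrays the precision is modest.

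Platform annotation gave 34958 probe sets 1 gene, 932 several and 9211 none. All 87 member probe sets matched the RefSeq gene table. The filter on the third-highest value kept 20127 probe sets, and the kept probe set with the highest mean stood for its gene. All 31 members tested had values above the median in several genotypes.

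One limma fit (3.58.1, R 4.3.3) of all 10 arrays, with a mean per genotype, no covariate and a mean-variance trend, gave two-sided tests, adjusted over 11357 genes. It was also run on simulated data with independent arrays. That setting lacks the similar wild-type pairs seen here, so it does not show how the fit behaves with them. Differences carry ± SE. Members are given array by array if their unadjusted p was under 0.05 in any comparison, if arrays of a pair of genotypes did not overlap, or if their class had no other example. Wnt2, Wnt4, Wnt10b, Ror1, Lrp5, Porcn and Fzd5 were named after their values were seen. Members and lists were chosen with earlier results of these data known. Alternatives are given in the closing section. Replicate numbers were not taken as pairing, since the labels name none.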

Additional observations from a re-analysis of the deposited data

Results flagged for a closer look

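In wild type, 2 of the 31 members tested had 1 array set apart from the other 3, where chance gives about 1 in 20. For Ror2, wild type 3 was low at 9.86 beside 9.99 to 10.01, a gap of 0.867 of the group's range. For Fzd2, wild type 3 was high at 10.76 beside 10.63 to 10.65, a gap of 0.846 of the range. Both gaps are about 0.1 on the log2 scale.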

How the results depend on the processing

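The count of members passing was 0 in all 3 comparisons, and stayed 0 in most alternatives. For active β-catenin against wild type it was 1 (Wnt5b) with the mean over kept probe sets, where 101 of 11357 genes passed. It was 1 (Lgr5) in low-Xist arrays alone (175 genes) and 1 (Fzd1) with the groups compared alone (141 genes). The main fit had 89 genes. Leaving out an array gave 0 to 1, with 1 without β-catenin active 2 (Wnt5b, 63 genes in all) and 1 without FoxO1 deleted 3 (Fzd1, 130 genes). With the replicate block it stayed 0 in all comparisons, though of 9 same-numbered pairs of samples only 2 had deviations correlated above 0.1, so the numbers are not taken as pairing. Of 20 member differences followed through 26 alternatives and left-out arrays, 17 kept direction and stayed short of passing throughout, and 0 reversed. They were picked from these same arrays by an unadjusted p under 0.05 or a lack of overlap. A kept direction is therefore no independent support. The fit of every kept probe set was not among the 26. In it, second probe sets of Ror2 (active β-catenin) and Fzd6 (FoxO1 deleted) differed from wild type in the other direction. Over all genes the 89 calls for active β-catenin became 15 with the block, 9 with similar wild-type arrays averaged, 10 with Xist as a covariate and 248 with the muscle score, which was added after the data were seen. At an unadjusted p under 0.05, the 8 members (12.1% of all genes) became 5 with similar wild-type arrays averaged (6.21%), 4 without β-catenin active 1 (11.2%) and 2 in arrays of high muscle score alone (8.04%). In arrays of low score alone there were 15, 11 higher and 4 lower, where 25.4% of all genes passed. That fit holds 1 array of each altered genotype, so the lone sample is assumed to vary like wild type. The members' median difference of 0.14 was 0.08 in arrays of high score and 0.23 in those of low score.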
